A study of Mus musculus with 18 samples.

Results

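The apolipoprotein L genes of the mouse are a small family whose levels were followed here in 18 RNA-seq libraries. A list of 7 genes was used (Apol6, Apol7c, Apol8, Apol9a, Apol9b, Apol10a and Apol10b), of 14 Apol genes in the annotation and of 55401 genes in the endothelial table and 22612 genes in the EO771 table. The list was chosen by symbol, after the EO771 values had been seen: Apol9a was among the genes with the strongest fall under 12-HETE. The EO771 values of the 7 genes are therefore given as a description, with no p-value, and nothing is read from whether they pass the threshold. This list and the other gene lists below were chosen with earlier results of these data known. Their endothelial p-values and counts are therefore not tests of lists fixed beforehand. Because Apol9a and Apol9b are near copies, their sum is given as well.

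Apolipoprotein L proteins carry amphipathic helices and bind lipids and membranes. A human member circulates on high-density lipoprotein and lyses trypanosomes, while most other members stay inside the cell. In the mouse the family has expanded by duplication, and several of its genes are induced by interferons, the cytokines that cells release on sensing viral or other foreign nucleic acid and that act through cell surface receptors and the JAK kinases bound to them. Of the genes described here, Apol9a and Apol9b are known as interferon-induced genes with antiviral activity.

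The samples were 6 groups of 3 libraries. The endothelial libraries came from wild-type C57BL/6 mice and were sorted as CD45- CD31high cells: blood vessel endothelial cells (BECs) from mammary fat pads (BEC normal), BECs from primary EO771 tumours (BEC tumour), and high endothelial cells (HECs) that also carried the lymph node addressin PNAd, from inguinal lymph nodes of mice without tumours (HEC normal) or from nodes of tumour-bearing mice that the labels call lymph node metastases (HEC tumour). Lymphocytes pass into lymph nodes through venules that are lined by HECs. The remaining groups were cultures of EO771, a breast cancer line of the mouse, to which vehicle (DMSO in saline) or 12-HETE was added, a lipid that the lipoxygenase ALOX12 produces from arachidonic acid. In these groups cell type and organ cannot be told apart, since every BEC library came from fat pad or tumour and every HEC library from a lymph node. The labels give no batch and do not say that the replicates were separate animals or cultures, so p-values measure the spread between these libraries.

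Library totals ranged from 56410964 to 79357993 units in the endothelial table and from 17294591 to 18624179 reads in EO771. The endothelial values are whole numbers, but their low values pile up at multiples of about 3.82 to 3.955, so the lowest amount that can be read from a library was set at 3 such steps, which is 11.5 to 11.9 deposited units, against 3 counts in EO771. Such floors cover counting error only. Summed endothelial markers were at 2071 to 2866 CPM (a gene's value scaled to a common library total) in the endothelial libraries. Glycam1 and Chst4, of the 5 high endothelial markers listed, were at 0 in every BEC library. Gcnt1 and Enpp2, of the same list, did not separate HECs from BECs by the thresholds given below. Mean Gcnt1 was lower in HECs, at 291 normalised units in HEC normal against 373 in BEC normal and 320 in HEC tumour against 490 in BEC tumour. Enpp2 overlapped, with means of 146 against 84.4 and 200 against 119. In HECs, Chst4 stood at 4.07 in HEC normal replicate 2 against 19906 and 20205 normalised units in the other two libraries, and Fut7, the fucosyltransferase of PNAd ligands, was at 14255 in HEC tumour replicate 3 against 66477 and 65523. BEC tumour held other cells' transcripts: summed macrophage markers (6 of 6 genes detected) were at 1583 to 2158 CPM against 107 to 128 in BEC normal, T cell markers at 21.8 to 40.8 against 0 to 0.0517, and epithelial markers ranged from 2.24 to 62.3. The part of these cells in the BEC tumour values was not tested.

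All 7 genes lie on mouse chromosome 15 (GRCm38) in a cluster of 13 Apol genes spanning chr15:77044729-77757003, or 712.3 kb, which also holds 3 other protein-coding genes. On the plus strand are Apol6 (ENSMUSG00000033576, chr15:77044729-77057106), Apol10a (ENSMUSG00000050982, chr15:77477047-77491069) and Apol9b (ENSMUSG00000068246, chr15:77729039-77736382). On the minus strand are Apol9a (ENSMUSG00000057346, chr15:77403789-77411135), Apol7c (ENSMUSG00000044309, chr15:77524852-77533316), Apol10b (ENSMUSG00000050014, chr15:77583819-77596125) and Apol8 (ENSMUSG00000056656, chr15:77747798-77757003). Apol9a and Apol9b thus stand on opposite strands at distant places of the cluster. Exons of Apol6 overlap those of the myoglobin gene Mb on the other strand, and none of the other 6 genes shares exon bases with a neighbour.

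Reads of Apol9a and Apol9b are hard to assign, because their coding sequences, both of 930 bases, are identical at 916 positions (98.5%) with an unbroken identical run of 446 bases. Of the 100-base windows of the coding transcripts, 40.0% in Apol9a and 36.7% in Apol9b occur in the other gene, and in no gene besides. No 100-base window of Apol6, Apol8 or Apol10b is shared with another gene. Of the 50-base windows, 2.3% in Apol6, 6.1% in Apol10b and 0.0% in Apol8 are shared with other genes. For the pair these shares are 55.3% in Apol9a and 52.3% in Apol9b. Over the coding sequence Apol10a and Apol10b were only 71.8% identical and Apol8 and Apol9a 57.4%. The stretch from coding base 490 to 579 is shown because it holds 7 of the 14 differences that tell the pair apart, which are in capitals.
Apol9a: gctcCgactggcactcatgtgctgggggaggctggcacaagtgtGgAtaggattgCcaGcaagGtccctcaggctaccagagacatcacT
Apol9b: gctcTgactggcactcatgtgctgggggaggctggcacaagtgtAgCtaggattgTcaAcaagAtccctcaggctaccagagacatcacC

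Promoters were read for 6 of the 7 genes from RefSeq (GRCm38.p6), as 250 bases before and 50 after the annotated start; Apol6 was not matched. They were searched on both strands for the core of the interferon-stimulated response element, GAAANNGAA, and for the gamma-activated site, TTCNNNGAA, which is its own reverse complement in form. The response element core was found in 5 of the 6 genes (Apol7c, Apol9a, Apol9b, Apol10a and Apol10b) and not in Apol8, against 8.56% of the 32851 promoters of the table. Apol9a, Apol9b and Apol7c held 2 matches each, which overlap, and 0.62% of all promoters held 2 or more matches, overlapping or not. A gamma-activated site was found in Apol10a alone of the 6, against 8.3% of all promoters. The promoters of 4 genes are shown, those of the genes with the highest values and that of Apol8, with the letters of the matches in capitals (5′ to 3′ on the gene's strand). The Apol9a window is chr15:77411031-77411330 on the minus strand, with matches that start 58 and 52 bases before the start site. That of Apol9b is chr15:77728822-77729121 on the plus strand, with matches 36 and 30 bases before it, and the pair of windows shares an identical run of 278 bases. RefSeq gives each copy a second start, from which the same matches lie 104 and 98 bases away in Apol9a and 85 and 79 in Apol9b. The Apol10b window is chr15:77596076-77596375 on the minus strand, with a match 3 bases before the start, and that of Apol8 is chr15:77756961-77757260 on the minus strand.
Apol9a: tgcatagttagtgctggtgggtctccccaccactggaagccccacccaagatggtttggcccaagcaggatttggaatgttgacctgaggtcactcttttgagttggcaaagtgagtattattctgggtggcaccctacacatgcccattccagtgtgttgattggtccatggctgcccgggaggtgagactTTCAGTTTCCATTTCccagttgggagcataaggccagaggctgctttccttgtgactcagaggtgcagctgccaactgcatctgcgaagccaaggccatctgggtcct
Apol9b: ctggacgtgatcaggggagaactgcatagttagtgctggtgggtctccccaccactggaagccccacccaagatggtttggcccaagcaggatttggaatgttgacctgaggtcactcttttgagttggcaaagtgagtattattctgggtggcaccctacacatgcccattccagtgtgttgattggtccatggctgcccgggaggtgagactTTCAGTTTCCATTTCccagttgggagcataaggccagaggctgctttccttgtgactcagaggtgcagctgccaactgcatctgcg
Apol10b: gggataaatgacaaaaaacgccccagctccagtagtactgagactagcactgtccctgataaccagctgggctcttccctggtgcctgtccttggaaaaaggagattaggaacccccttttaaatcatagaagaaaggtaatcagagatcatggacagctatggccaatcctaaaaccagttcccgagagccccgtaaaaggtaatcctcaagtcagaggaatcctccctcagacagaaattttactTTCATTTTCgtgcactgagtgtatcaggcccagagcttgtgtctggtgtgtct
Apol8: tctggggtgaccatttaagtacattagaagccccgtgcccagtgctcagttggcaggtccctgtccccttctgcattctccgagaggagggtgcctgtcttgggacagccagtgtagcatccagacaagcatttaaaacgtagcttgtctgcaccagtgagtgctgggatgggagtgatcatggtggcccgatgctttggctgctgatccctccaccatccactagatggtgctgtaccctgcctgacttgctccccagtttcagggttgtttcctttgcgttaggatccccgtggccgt

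These matches describe letters only, and no binding was measured here.

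The 7 genes differed widely in level. Per kilobase of the longest coding transcript, in HEC normal, Apol9a was at 17094 ± 273 normalised units per kb (SD, n = 3) and Apol9b at 5767 ± 808. Apol10b followed at 170 ± 21.1, Apol8 at 34.8 ± 1.96 and Apol6 at 1.72 ± 1.75 on the same scale. In EO771 cells given vehicle, Apol9a and Apol9b were near each other at 2422 ± 51.4 and 2365 ± 68.4 counts per kb, while Apol10b was at 62.8 ± 12.8. The order of Apol9a and Apol9b depends on the length used. Apol9a was higher in 6 of 6 groups by the longest coding transcript, a length added after seeing the data. It was higher in 2 by the longest transcript of any kind, which for Apol9a retains an intron. By the union of exons, the planned length, it was higher in 0, with 4393 ± 70 for Apol9a and 4982 ± 698 for Apol9b in HEC normal. The order of the pair against Apol10b, Apol8 and Apol6 did not rest on the choice of length. A mean of at least 10 was required for a gene to enter the fits, which 5 of the 7 genes met in the endothelial table (Apol6, Apol8, Apol9a, Apol9b and Apol10b) and 3 in EO771 (Apol9a, Apol9b and Apol10b).

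Apol10a was at 0 in all 18 libraries. Apol7c, a gene known from dendritic cells, stayed under the floor throughout the endothelium: it was at 10, 11 and 10 deposited units in BEC tumour, at 0, 0 and 4 in HEC normal, and at 0 in the other 6 libraries. Its EO771 counts were 0, 2 and 1 with vehicle and 0 in the 3 libraries with 12-HETE. At this depth neither gene could be compared between groups. Summed dendritic cell markers were low in all endothelial groups, at 10.6 to 27.1 CPM.

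Apol9a differed in level between all 4 endothelial groups. Normalised values (the deposited value divided by the library's size factor) were 26586, 25754 and 26123 in HEC normal, mean 26154 ± 417 (SD, n = 3). In HEC tumour they were 13720, 14164 and 13742, in BEC normal 9315, 10660 and 9961, and in BEC tumour 4454, 4949 and 5147. The groups therefore stood in the order HEC normal, HEC tumour, BEC normal, BEC tumour, with no overlap between neighbours.

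Apol9b followed a similar order of means but with a wide spread. It was at 9188, 10282 and 7747 in HEC normal, at 11554, 5031 and 4147 in HEC tumour, at 4721, 2819 and 6058 in BEC normal, and at 953, 1116 and 2425 in BEC tumour. HEC tumour overlapped HEC normal and BEC normal, since replicate 1 was the highest of the 12 libraries and replicates 2 and 3 lay within the range of BEC normal. Within groups, the highest library was 2.79 times the lowest in HEC tumour and 2.55 times in BEC tumour for Apol9b, against 1.03 and 1.16 times for Apol9a.

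The sum of the pair does not depend on how reads were divided between the copies, as long as each read was counted once. It was at 35774, 36035 and 33870 in HEC normal, 25275, 19194 and 17889 in HEC tumour, 14037, 13480 and 16020 in BEC normal, and 5407, 6065 and 7573 in BEC tumour. The 4 groups did not overlap, in the same order as for Apol9a.

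**Figure D1:**
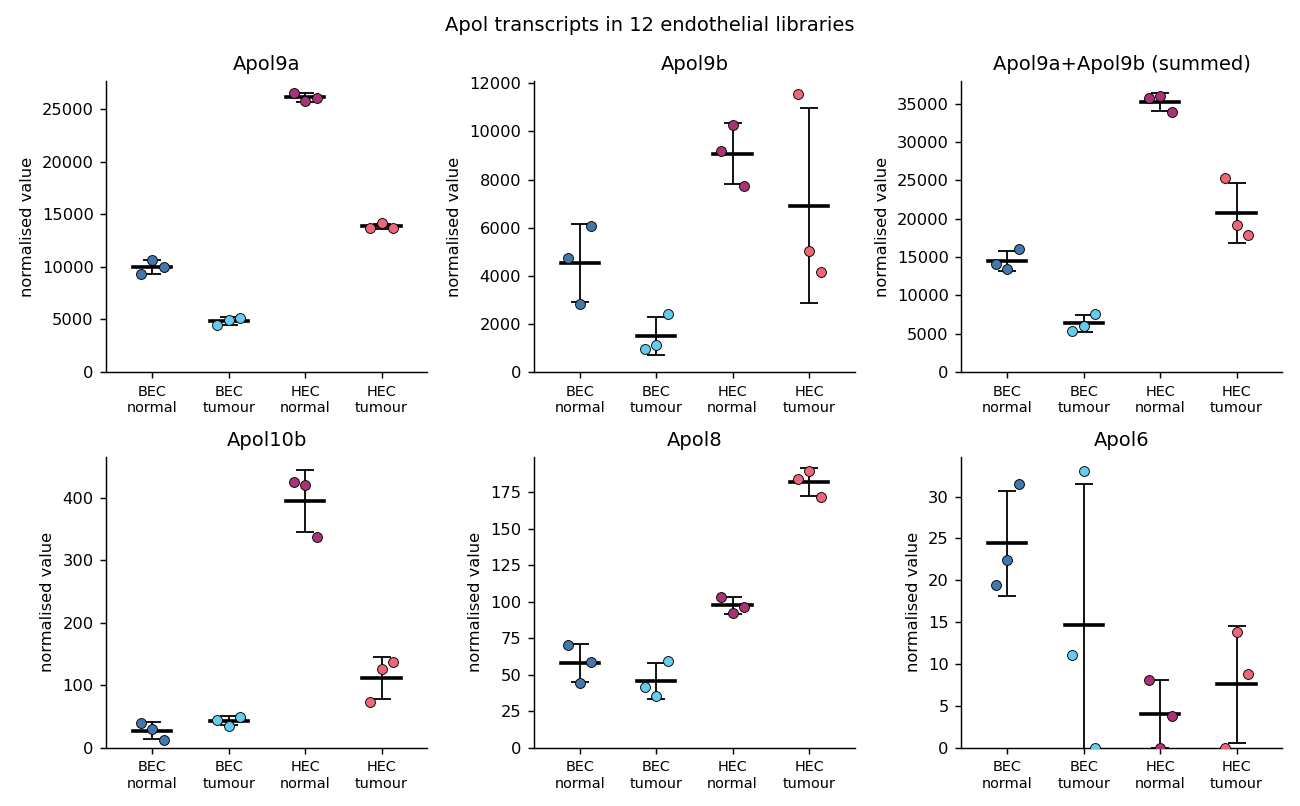
Normalised values (linear axes from 0) of Apol9a, Apol9b, their sum, Apol10b, Apol8 and Apol6 in the 12 endothelial libraries; points are libraries, thick bars the mean and thin bars the SD of 3. Apol9a and the sum fall from HEC normal to BEC tumour without overlap, Apol10b is at 338 to 426 in HEC normal against at most 137 elsewhere, and Apol8 is highest in HEC tumour.

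Among endothelial libraries of a group, the share of Apol9b in the pair varied more than the sum did. In HEC tumour it was 45.7% in replicate 1 against 26.2% and 23.2% in the other two libraries, and in BEC tumour 32% in replicate 3 against 17.6% and 18.4%. The share was 33.6%, 20.9% and 37.8% in BEC normal and 25.7%, 28.5% and 22.9% in HEC normal. No endothelial library reached the 49.9% to 50.3% of the vehicle-treated EO771 cells. The endothelial and EO771 values differ in their units and in the set of genes counted. A difference in share between them therefore cannot be told apart from a difference in counting. How the counting treated reads that match both genes is not given in the sources used here.

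**Figure D2:**
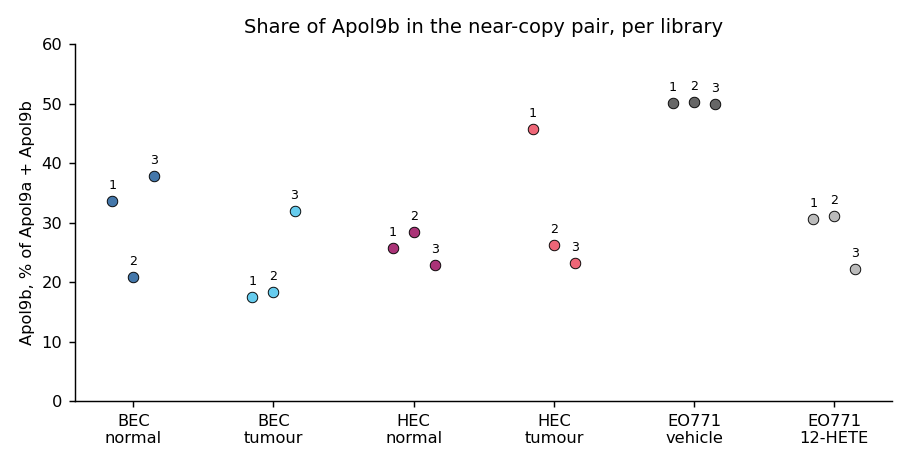
Share of Apol9b in the sum of Apol9a and Apol9b (percent, linear axis from 0), with 1 numbered point per library in the 6 groups. Endothelial libraries lie between 17.6% and 45.7%, vehicle-treated EO771 cells close to 50.1%, and EO771 cells given 12-HETE between 22.3% and 31.2%. Endothelial and EO771 values differ in their units and gene set, so their shares are not directly comparable.

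How far HECs and BECs differ without a tumour was asked first. Of the 5 genes tested, 2 were called higher in HEC normal (Apol9a and Apol10b) and 0 lower, where called means a DESeq2 adjusted p under 0.05 with a log2 fold change over 1 in size; over all 18511 genes tested, 17.1% were called higher and 15.1% lower. Apol10b rose from 39.7, 30.6 and 12.2 normalised units in BEC normal to 426, 420 and 338 in HEC normal, which on the log2 scale is 3.84 ± 0.40 (SE; DESeq2 adjusted p = 2.49e-21). BEC normal replicate 3, at 12 deposited units, was barely above its floor of 11.9, so the size of this change is uncertain. For Apol9a the change was 1.39 ± 0.07 (adjusted p = 1.11e-88), and for the sum of the pair 1.28 ± 0.15 (adjusted p = 4.19e-17). Apol9b alone had the same direction at 1.00 ± 0.52 but was not called (adjusted p = 0.0816), and its groups did not overlap. It was called with 1.01 when the fit held only these 2 groups (adjusted p = 0.000204), with 1.00 without BEC tumour replicate 3 (adjusted p = 0.0383) and with 1.01 without HEC tumour replicate 1 (adjusted p = 0.0052), libraries of other groups that share the fit. Apol8 was at 103, 92.6 and 96.5 in HEC normal against 70.5, 44.7 and 58.9, a change of 0.74 ± 0.28 that fell short of the fold required (adjusted p = 0.0146). Apol6 was at 19.4, 22.4 and 31.5 in BEC normal and at 8.11, 0 and 3.82 in HEC normal, all 3 of which lie under the floor. Its fitted change of -2.62 ± 1.62 was not called (adjusted p = 0.149). Fibroblast and pericyte markers summed to 186 to 192 CPM in BEC normal against 22.4 to 23.4 in HEC normal, with 4 of 5 called lower in HEC normal, and their part in these differences was not tested.

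Between tumour-associated HECs and tumour BECs, 4 of the 5 genes were called higher and 0 lower, against 11.2% and 10.7% of all genes. Apol8, at 184, 190 and 172 in HEC tumour and 41.7, 35.5 and 59.3 in BEC tumour, differed by 2.00 ± 0.28 on the log2 scale (DESeq2 adjusted p = 4.08e-12). For Apol9a the difference was 1.52 ± 0.07 (adjusted p = 4.17e-103), for Apol9b 2.21 ± 0.52 (adjusted p = 7.45e-05) and for their sum 1.71 ± 0.15 (adjusted p = 2.50e-29). Apol10b was at 73.9, 126 and 137 in HEC tumour against 44.5, 35.5 and 49.7 in BEC tumour, a difference of 1.38 ± 0.39 (adjusted p = 0.001). None of these 4 genes overlapped between the groups. The share of all genes without overlap was not counted, so nothing is read from this here or in the other comparisons. Apol6, which is partly under the floor in both groups, was not called (-0.96 ± 1.60, adjusted p = 0.64). BEC tumour is also the group with the macrophage and T cell markers given above, and in HEC tumour the macrophage sum was 355 to 374 CPM with C1qa, C1qb and Adgre1 at 0. Fibroblast and pericyte markers summed to 32.3 to 56.5 CPM in BEC tumour against 10.6 to 11.6 in HEC tumour. Since the libraries are bulk, fewer cells of a type and less RNA per cell cannot be told apart.

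The next question was how HECs change when a tumour is present. Here 1 of the 5 genes, Apol10b, was called lower and 0 were called higher, against 3.21% and 4.58% of all genes; edgeR's quasi-likelihood test also called 0 higher and 1 lower, and at an unadjusted p under 0.05 there were 1 higher and 2 lower. Apol10b went down from between 338 and 426 normalised units to between 73.9 and 137, and its log2 value fell by 1.81 ± 0.37 (DESeq2 adjusted p = 8.78e-06). Apol9a fell by 0.91 ± 0.07, which is just short of the fold required for a call (adjusted p = 4.28e-38), and the sum by 0.76 ± 0.15 (adjusted p = 2.62e-06). Both passed the p threshold with groups that did not overlap. Apol9b had a difference of -0.39 ± 0.52 (adjusted p = 0.614), which became -0.98 (adjusted p = 0.0308) without HEC tumour replicate 1, the library with the Apol9b share of 45.7%. Apol8 moved the other way, from 92.6 to 103 in HEC normal to 172 to 190 in HEC tumour, by 0.90 ± 0.27 (adjusted p = 0.00309), again short of the fold. Apol6 was at 0, 13.8 and 8.85 in HEC tumour (0.93 ± 1.64, adjusted p = 0.722). Leaving out HEC normal replicate 2 or HEC tumour replicate 3, whose Chst4 and Fut7 stood apart, changed none of these calls. Summed fibroblast and pericyte markers also fell, from 22.4 to 23.4 CPM in HEC normal to 10.6 to 11.6 in HEC tumour, with 3 of 5 called lower. Mean Dcn did not fall, at 12.5 with tumour and 11.4 without, and Rgs5 was under the floor in both groups, at 0 and 2.37. The leukocyte gene Ptprc was called lower (-3.71 ± 0.89). It was near or under the floor, at 15, 12 and 31 deposited units in HEC normal and 4, 0 and 0 in HEC tumour. Clec9a (-1.35 ± 0.45) was called lower, as 1 of 4 dendritic cell genes tested. Their part in the Apol values was not tested.

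In BECs, the presence of a tumour cannot be told apart from the tissue, since BEC normal came from fat pad and BEC tumour from the tumour itself. The paper's methods also give different digestions for these tissues. Of the 5 genes, 2 were called lower with tumour, Apol9a and Apol9b, and 0 higher, against 10.8% and 12.4% of all genes. edgeR called the same numbers, 2 and 0, and at an unadjusted p under 0.05 there were 2 lower and 0 higher. Apol9a fell by 1.04 ± 0.07, from 9315 to 10660 normalised units to 4454 to 5147 (DESeq2 adjusted p = 7.78e-49). Apol9b fell by 1.60 ± 0.52 (adjusted p = 0.00506) and the sum by 1.19 ± 0.15 (adjusted p = 8.47e-15). The Apol9a call sits at the fold limit, and was lost at -1.0 with only the 2 groups in the fit and at -0.98 without BEC tumour replicate 1. Apol8 was not called (-0.36 ± 0.29, adjusted p = 0.303), nor was Apol6, at 11.1, 33 and 0 in BEC tumour (-0.73 ± 1.58, adjusted p = 0.727). Apol10b, at 44.5, 35.5 and 49.7 against 39.7, 30.6 and 12.2, gave 0.65 ± 0.41 (adjusted p = 0.178). Without BEC normal replicate 1 it was called higher, at 1.03 (adjusted p = 0.043). Beside these falls, 6 of 6 macrophage markers were called higher in BEC tumour, and 4 of 5 fibroblast and pericyte markers lower and 1 higher.

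Whether the change with tumour differs between HECs and BECs was tested with the interaction term of the same fit, that is, the change in HECs less the change in BECs. The BEC part sets tumour tissue against fat pad, so the term also holds any difference between those tissues. Of the 5 genes, 1 was called higher (Apol8) and 1 lower (Apol10b), against 11.2% and 12.1% of all genes. For Apol8 the difference was 1.26 ± 0.39 (DESeq2 adjusted p = 0.00401): the mean rose from 97.5 to 182 in HECs and was 58.1 without and 45.5 with tumour in BECs. For Apol10b it was -2.46 ± 0.55 (adjusted p = 3.97e-05), with means of 395 and 112 in HECs and 27.5 and 43.2 in BECs. Apol9a did not differ detectably in its change, at 0.13 ± 0.10 (95% interval -0.07 to 0.32, adjusted p = 0.303). The sum gave 0.43 ± 0.21 (95% interval 0.02 to 0.84, adjusted p = 0.0791) and Apol9b 1.20 ± 0.74 (adjusted p = 0.175). Without BEC tumour replicate 3, Apol9b was called at 1.74 (adjusted p = 0.0224). Apol6 gave 1.66 ± 2.28 (adjusted p = 0.586).

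**Figure D3:**
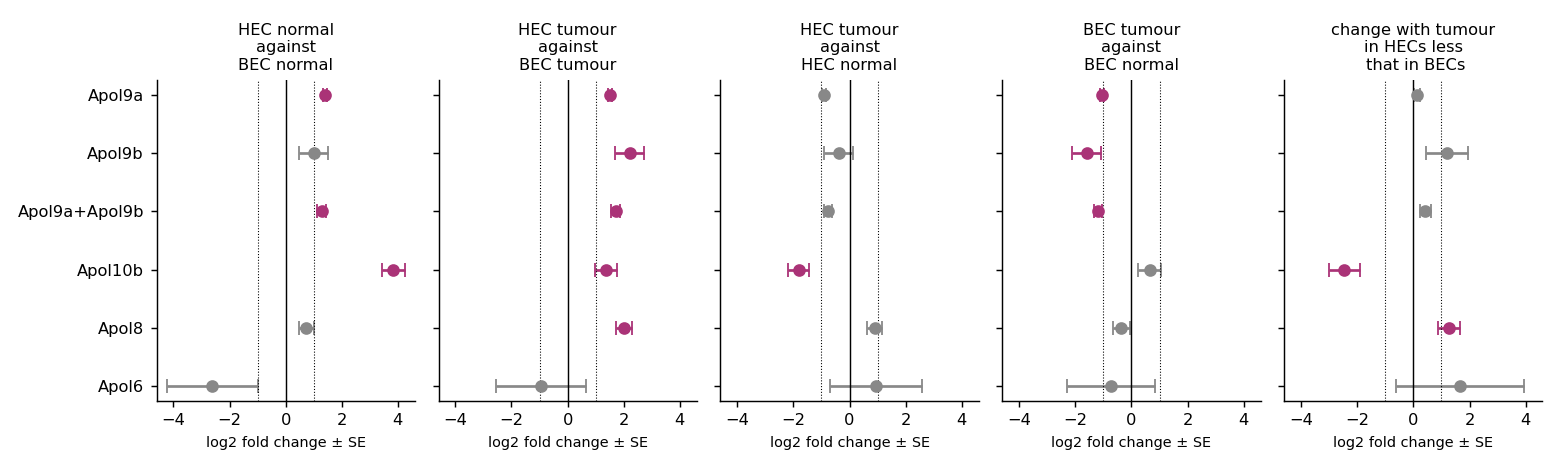
Log2 fold change with its SE (horizontal axis) of Apol9a, Apol9b, their sum, Apol10b, Apol8 and Apol6 in 4 comparisons of endothelial groups and in the difference between the changes with tumour; coloured points are called, grey points are not, and dotted lines mark a log2 fold change of 1 in size. Apol9a, Apol9b, the sum, Apol10b and Apol8 lie above 0 in both HEC against BEC panels, and Apol8 and Apol10b lie on opposite sides of 0 in the last panel.

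The comparisons share groups (HEC normal is in 2 of them, for example), so their values are not independent of each other.

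Interferon pathway genes were set beside the family as a list of 19, with receptors (Ifnar1, Ifnar2, Ifngr1, Ifngr2), kinases (Jak1, Jak2, Tyk2), transcription factors (Stat2, Irf1, Irf7, Irf9) and induced genes (Isg15, Usp18, Ifit1, Ifit3, Mx1, Rsad2, Gbp2, Cxcl10). All 19 were tested, and this list too was chosen with earlier results of these data known. With tumour in HECs, 0 were called higher and 10 lower, against 4.58% and 3.21% of all genes. The median log2 change was -1.05 against 0.02 over all genes. Ifit3, which binds other antiviral proteins of its kind, fell by 2.98 ± 0.06 and Isg15, a ubiquitin-like protein attached to other proteins, by 1.92 ± 0.13 (DESeq2 adjusted p = 6.52e-45). In BECs 1 was called higher and 4 lower with tumour (median -0.13), against 12.4% and 10.8% of all genes. There Isg15 fell by 1.95 ± 0.13 (adjusted p = 1.69e-47) but Rsad2, which makes an antiviral nucleotide, rose by 2.24 ± 0.07 (adjusted p = 6.40e-229). Between HEC normal and BEC normal 3 were called higher and 2 lower (median 0.16), and between HEC tumour and BEC tumour 2 higher and 2 lower (median -0.39), which is near the shares over all genes given above for both comparisons. In the test of the difference between both changes, 6 of the 19 genes were called, all with the lower change in HECs, and 0 with the higher. Over all genes 12.1% were called with the lower change in HECs and 11.2% with the higher.

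The summed level of the 19 genes was 4328 to 4637 CPM in HEC normal, 1927 to 1952 in HEC tumour, 2044 to 2157 in BEC normal and 1809 to 1869 in BEC tumour. For this sum HEC tumour lay below BEC normal, and for Apol9a it lay above. Gene by gene the list was mixed. Mean normalised Cxcl10 was 32466 in HEC tumour against 5214 in BEC normal, and Rsad2 was 16658 against 3857. Ifit3 was 8148 in HEC tumour against 15174 in BEC normal, and Isg15 was 4376 against 22848. The difference between the patterns was not tested.

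The genes whose pattern was most like each Apol gene were found by Pearson's r of log2(normalised value + 1) over the 12 endothelial libraries, among about 18510 genes. These r values describe libraries that share groups and depth, and no test was made. For Apol9a they were B2m (r = 0.997), Bnip3 (0.989) and Rpl14 (0.987), and for the sum Proser2 (0.987), B2m (0.982) and Apln (0.982). Apol9b was most like Pwwp2b (0.952), Nr1i3 (0.94) and Asgr1 (0.937). Apol10b was most like Lsm14b (0.989), Gm7899 (0.976) and Efna1 (0.961), Apol8 like Gm2237 (0.979), Llph (0.977) and Mecom (0.972), and Apol6 like Gm15731 (0.931), Gipc3 (0.894) and Mkln1os (0.891). None of them is in the interferon list, which is short and was chosen by hand, so nothing is read from this. Among the family itself r was 0.87 between Apol9a and Apol9b and 0.78 between Apol9a and Apol10b, and Apol6 had r of -0.28 to -0.48 with the other 4.

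In EO771 cells the question was what 12-HETE does to the transcripts of tumour cells, and this is the comparison whose values chose the list. Apol9a was at 3678, 3794 and 3643 normalised counts with vehicle and at 81.1, 86.7 and 85.6 with 12-HETE, a log2 change of -5.45 ± 0.13 (SE), or 43.8-fold lower. Apol9b was at 3694, 3838 and 3627 with vehicle and at 35.9, 39.4 and 24.6 with 12-HETE, 112-fold lower. Every 12-HETE library was far under every vehicle library for both genes. The sum of the pair went from 7372, 7631 and 7270 to 117, 126 and 110, or 63-fold lower. Apol10b went from 149, 115 and 174 to 7.19, 4.93 and 2.95, which is 29.2-fold lower and near the floor of 3 counts. All 3 genes tested of the 7 were called lower and 0 higher, against 7.79% and 2.38% of the 11602 genes tested, and nothing is read from this count because the list was drawn from it.

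**Figure D4:**
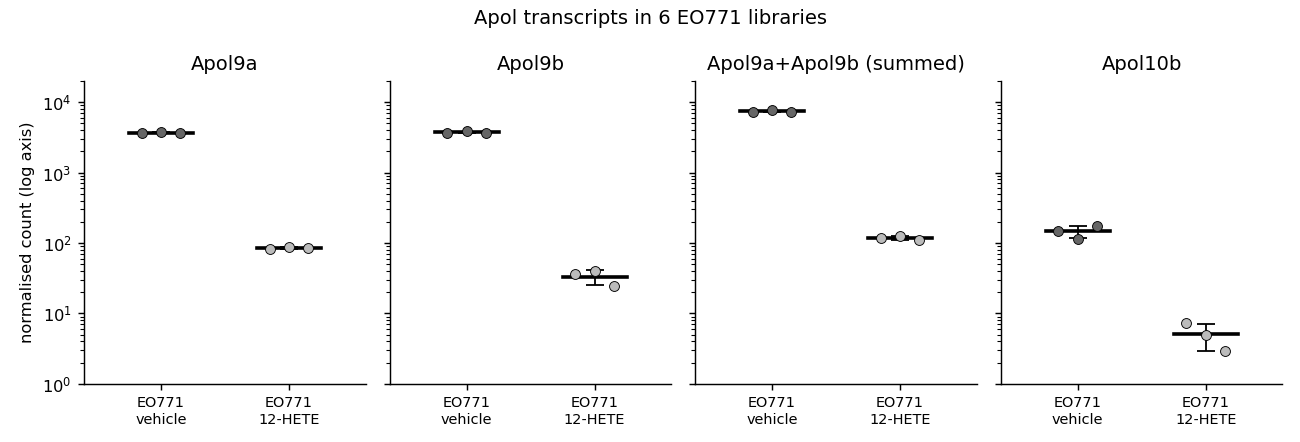
Normalised counts (log axis) of Apol9a, Apol9b, their sum and Apol10b in 3 vehicle and 3 12-HETE libraries of EO771 cells; points are libraries, thick bars the mean and thin bars the SD. The vehicle and 12-HETE libraries do not overlap in any panel, and the means of Apol9a and Apol9b, 3705 and 3720 with vehicle, are 84.5 and 33.3 with 12-HETE.

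The other 4 genes gave too few reads in EO771 to be fitted. Apol8 was at 0, 7 and 1 counts with vehicle and 2, 9 and 3 with 12-HETE, so the groups overlapped. Apol6 was at 5, 7 and 4 against 2, 2 and 0, which lie at or under the floor with 12-HETE.

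The deposited split of the pair in EO771 is given as a description too, since how reads that match both copies were treated is unknown. With vehicle, Apol9b made up 50.1%, 50.3% and 49.9% of the pair, and with 12-HETE 30.7% (exact 95% binomial interval 22.4% to 40%), 31.2% (23.4% to 40%) and 22.3% (15% to 31.2%). The intervals cover counting error only. Each of the 3 lies below every vehicle share.

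Of the 19 interferon pathway genes in EO771 cells, 12 were lower by the same criterion and 0 higher, against 7.79% and 2.38% of all genes. Their median log2 change was -4.34 against 0.00 over all genes, again as a description of the contrast that chose the Apol list. Ifit3 went from a mean of 1040 to 0.998 normalised counts and Isg15 from 8663 to 28.8, so that both lost more than Apol9a did, while the receptors Ifnar1 (0.24 ± 0.09) and Ifngr1 (-0.06 ± 0.11) stayed within the fold. The summed list went from 4112 to 4447 CPM with vehicle to 714 to 733 with 12-HETE. Myh9, the gene next to Apol8 outside the cluster, was at 11908, 12464 and 12288 with vehicle and 11271, 10775 and 11414 with 12-HETE, a difference of -0.13 ± 0.07.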

How the data were processed

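RNA was sequenced from 12 endothelial and 6 EO771 libraries in 6 groups of 3, which were taken from the labels. Per the study's methods, the authors used STAR on GRCm38 and then featureCounts, with gene as the unit. Strand setting and treatment of multiply matching reads are not given in the sources used here. The deposited endothelial values were treated as estimated counts: all are whole, but values up to 60 lie on steps of 3.82 to 3.955 in 39.2% to 44.0% of cases, within 0.6 of a multiple, where 28.3% to 33.3% of the whole numbers from 1 to 60 do. For EO771 the deposited values are raw counts of reads per gene. Totals, as above, set the precision.

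Each table was fitted with DESeq2 1.42.0 (R 4.3.3, default Wald test, Benjamini-Hochberg adjustment over all genes) after dropping genes with a mean under 10, with 1 fit over 4 endothelial groups and 1 over 2 EO771 groups. The sum of Apol9a and Apol9b replaced the pair in a further fit. A gene was called at an adjusted p under 0.05 and over 2-fold. Alternatives were edgeR 4.0.16 (quasi-likelihood, TMM), TMM factors, no filter on low values, values divided by their step, only the 2 groups, each library left out and the replicate number as a block. The script was tested on simulated data. With 3 against 3 libraries an exact permutation test cannot go below p = 0.1, so none was used. No libraries were identical.

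The 7 genes and all gene lists were chosen with earlier results of these data known, and 1 further interferon pathway gene, beside the 19, is not reported here. Named genes are the 7, other Apol genes with a mean of at least 10, the genes next to the cluster, listed pathway and marker genes, and the 3 genes most like each Apol gene. In EO771, same-numbered libraries deviated together in all 3 pairs (r 0.16 to 0.46), although the labels do not name what they share. The EO771 values given come from the fit without a block, and the block was an alternative.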

Additional observations from a re-analysis of the deposited data

Results flagged for a closer look

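For 4 Apol genes, HECs and BECs changed unequally with tumour by the test of the difference itself (DESeq2 interaction term, adjusted over all genes). Of these, 2 belong to the 7 genes described above. The Apol genes tested were 5 of the 7, Apol7a and Apol7d. Over all genes tested, 11.2% were called higher and 12.1% lower by this term. For Apol8 the change in HECs less that in BECs was 1.26 on the log2 scale, and for Apol10b it was -2.46. Both were called in all 17 alternatives, where Apol8 ranged from 1.10 to 1.50 and Apol10b from -2.84 to -2.09.

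Apol7a, a neighbour of Apol9a in the cluster, had a difference of -1.75 ± 0.47 (adjusted p = 0.000702). Its normalised values were 93.5, 51.8 and 50.8 in BEC normal, 137, 107 and 123 in BEC tumour, 151, 225 and 217 in HEC normal and 84.3, 140 and 103 in HEC tumour. It thus had a change of 0.90 ± 0.34 in BECs and -0.85 ± 0.33 in HECs, and neither reached the fold required on its own. It was called in HECs without HEC normal replicate 1 (-1.02, adjusted p = 0.018) or HEC tumour replicate 2 (-1.08, adjusted p = 0.0125), and in BECs without BEC normal replicate 1 (1.25, adjusted p = 0.000806). In EO771 it was at 17.8, 22 and 13.3 normalised counts with vehicle and 6.16, 3.94 and 0.984 with 12-HETE.

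Apol7d, annotated as an antisense gene on chromosome 1 over exons of Fn1 and not in the cluster, had a difference of 3.66 ± 1.39 (adjusted p = 0.0203). Its deposited values in BEC tumour were 4, 0 and 0, all under the floor of 3 steps, so the fitted size is no bound, and the call was lost in 7 of 17 alternatives. Reads of Apol7d and Fn1 cannot be told apart without strand.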

How the results depend on the processing

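Of the endothelial calls of the 7 genes, all but that for Apol9a with tumour in BECs held in every alternative. For Apol9b with tumour in BECs the DESeq2 adjusted p went up to 0.0496, without BEC normal replicate 3. With only the 2 groups in the fit, the genes called lower fell from 2 to 1 with tumour in BECs (Apol9a, -1.0) and rose from 0 to 1 between HEC normal and BEC normal (Apol6, -2.61). Leaving out 1 library at a time gave 0 to 1 genes called higher and 1 to 2 lower with tumour in BECs, 1 to 2 called higher in the difference between changes, 2 to 4 interferon genes lower between HEC tumour and BEC tumour, and 219 to 509 genes higher with 12-HETE in EO771 (509 without vehicle replicate 3). Apol9a exceeded Apol9b per length in 0 groups by the union of exons, in 2 by the longest transcript and, an alternative added after seeing the data, in 6 by the longest coding transcript. Of directions, only Apol6 between HEC tumour and BEC tumour (-1.73 to 0.45 over libraries left out, positive without BEC tumour replicate 2) and Apol7d in HECs with tumour (-0.52 to 0.33, positive at 0.09 without HEC normal replicate 3 and at 0.33 without HEC tumour replicate 2) turned, none of them called. The causes were not tested, and a fit with only the 2 groups was not run for the difference between changes. With replicate number as a block, no call of the 7 genes changed; calls were 812 higher and 567 lower in HECs with tumour and 275 and 808 in EO771. Among endothelial libraries, 2 of 18 same-numbered pairs had r over 0.1 (median 0.035), against 2 of 36 differently numbered pairs (median -0.02). Whether the number stands for shared handling was not tested. Depth limits Apol6, Apol7c and Apol10a, which lie at or near the floor. It also limits Apol10b in BEC normal, at 45, 26 and 12 deposited units, and so the changes set against that group.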
